A study of Mus musculus with 12 samples.

Results

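Irf7, Isg15, Usp18, Ifit1, Ifit3, Oasl2, Zbp1, Bst2, Rtp4 and Ifi27l2a are 10 interferon-stimulated genes, taken by gene symbol from the 55335 gene rows counted in mouse thymocytes, the developing T cells of the thymus. Their levels were compared between wild-type (WT) mice and knockout (KO) mice without the microRNA genes miR-181a/b-1, in a study of where miR-181 acts on its targets in the thymus. RNA-seq measured their transcripts, and ribosome footprinting, which sequences the mRNA fragments that ribosomes protect from nuclease, measured how much of each transcript was being translated. Each assay had 3 WT and 3 KO libraries, or 12 libraries in 4 groups. All mice were 6 weeks old and kept free of specific pathogens, and in all groups the cells went through a 70 µm strainer straight into buffer with cycloheximide at 0.1 mg/ml, a drug that stalls ribosomes. The labels give no strain or sex, nor whether any mouse gave both an RNA-seq and a footprint library. They name no cell type to which the deletion is limited, so other cells of the thymus may carry it too.

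Type I interferons bind the receptor pair IFNAR1 and IFNAR2, whose kinases JAK1 and TYK2 activate transcription factors, STAT2 and IRF9 among them, that bind the interferon-stimulated response element (ISRE) in the promoters of interferon-stimulated genes. The products of such genes sense or restrict viruses, and the thymus is known for a steady, low interferon signal even without infection, to which epithelial and dendritic cells contribute.

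The deleted microRNAs differ in their tails and share their seed, bases 2 to 8 of the mature strand, which is in capitals in these RefSeq sequences (GRCm38.p6, chr1:137966468-137966490 and chr1:137966650-137966673, plus strand).
miR-181a-5p: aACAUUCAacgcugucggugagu
miR-181b-5p: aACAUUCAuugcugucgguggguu

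The ISRE core is shown next because it is what these factors bind. The letters GAAANNGAAA were searched on both strands in RefSeq promoters (GRCm38.p6, 300 bases each), with overlapping matches counted. They lie in 3.44% of 32851 promoters. Irf7, Isg15, Ifit1, Ifit3, Oasl2 and Bst2 were matched to that table, and 4 of these 6 hold the letters. Among the other interferon-stimulated genes listed for comparison, 27 of 56 hold them. The stretches from 170 to 51 bases before the start are printed on the gene's own strand for the 4 promoters with a match, with matches in capitals. Isg15 is at chr4:156200869-156200988 (minus strand), Ifit1 at chr19:34640719-34640838 (plus), Ifit3 at chr19:34583359-34583478 (plus) and Bst2 at chr8:71537523-71537642 (minus).
Isg15: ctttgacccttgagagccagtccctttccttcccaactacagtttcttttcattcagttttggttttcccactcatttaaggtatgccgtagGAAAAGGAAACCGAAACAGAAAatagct
Ifit1: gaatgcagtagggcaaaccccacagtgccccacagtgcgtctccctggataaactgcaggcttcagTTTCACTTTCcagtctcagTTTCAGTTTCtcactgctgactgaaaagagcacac
Ifit3: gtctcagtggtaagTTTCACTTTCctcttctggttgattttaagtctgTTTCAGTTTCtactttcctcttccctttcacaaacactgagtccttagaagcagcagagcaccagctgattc
Bst2: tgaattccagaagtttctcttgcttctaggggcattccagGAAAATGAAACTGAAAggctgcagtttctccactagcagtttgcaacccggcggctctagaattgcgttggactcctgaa
Isg15 has 3 overlapping matches that begin 78, 72 and 66 bases before the start, and Bst2 has 2 overlapping matches at 130 and 124. In Ifit1 the 2 matches, at 104 and 85, read on the opposite strand, as do the 2 of Ifit3 at 156 and 122. The searched promoters of Irf7 and Oasl2 have no match to these letters.

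Between 4479182 and 8180286 reads fell in genes in RNA-seq libraries, and between 4069968 (KO replicate 3) and 17859770 in footprint libraries. The row of the deleted Mir181a-1 held 148 ± 16.8 CPM (SD, n = 3; a CPM value is the share of a gene in the scaled library total) in WT footprint libraries and 0.828 ± 0.317 in KO. In RNA-seq it held 2.81 ± 1.62 and 3.27 ± 1.59, so it does not check the genotype of the RNA-seq libraries, whose WT and KO are as labelled throughout. The 12 thymocyte markers listed, such as Cd3e, Cd4, Cd8a and Rag1, were present in every library, with summed CPM of 13663 to 15702 in RNA-seq and 23627 to 24953 in footprints.
Deviations of WT and KO libraries with the same replicate number from their group means mirrored each other, with r from -0.98 to -0.96 across 9756 genes in RNA-seq and from -0.99 to -0.98 across 8652 in footprints. Of the 10 genes, each had opposite signs in all 3 pairs of both assays except Zbp1 in footprints, with 2 of 3. The authors named their counts as adjusted without saying how, so SDs and SEs may not measure the spread between mice. The p-values of the fit without a block may therefore be too small, and calls are given beside the fit that holds the replicate number as a block.

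In KO thymocytes most of the 10 genes were lower in both assays. In RNA-seq 9 of 10 had a log2 fold change (KO against WT) below 0, with a median of -0.47, against -0.00 over all 13652 genes tested, of which 50.1% were lower. In footprints 9 of 10 were lower too, with a median of -0.43 against -0.01 over 13509 genes, of which 51.6% were lower. The member above 0 was Usp18 in RNA-seq and Zbp1 in footprints. All 10 passed the filter on low counts in both assays.
In each assay 10% of all genes lay below -0.40, and 7 of the 10 genes did so in RNA-seq and 5 in footprints. Summed over the 10 genes, the level was 170 to 192 CPM in WT and 138 to 157 in KO libraries of RNA-seq, and 402 to 463 against 326 to 374 in footprints. The groups overlapped in neither sum. In such bulk samples fewer cells of a type and less RNA per cell cannot be told apart.

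Genes with an edgeR quasi-likelihood FDR (Benjamini-Hochberg over all genes tested) under 0.05 were called. In RNA-seq Irf7 alone of the 10 was called, lower in KO, where 3.43% of all genes tested were called lower. With the replicate block the edgeR count was 0 of 10 against 0.418% of all genes. At an unadjusted p under 0.05 edgeR without the block listed 6 of the 10, where 23.8% of all genes were listed, and with the block 3, where 9.71% were. DESeq2 called 0.
In footprints Irf7, Isg15, Ifit3, Oasl2 and Bst2 were called lower, or 5 of 10 against 8.34% of all genes. With the block Bst2 was the 1 gene called, against 1.13% of all genes. All KO libraries lay below all WT libraries for 4 of the 10 in RNA-seq, where 15.4% of all genes did, and for 8 of the 10 in footprints, where 19.6% did. The genes were proposed with earlier results of these data known, so these shares describe them and are no independent test.

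**Figure D1:**
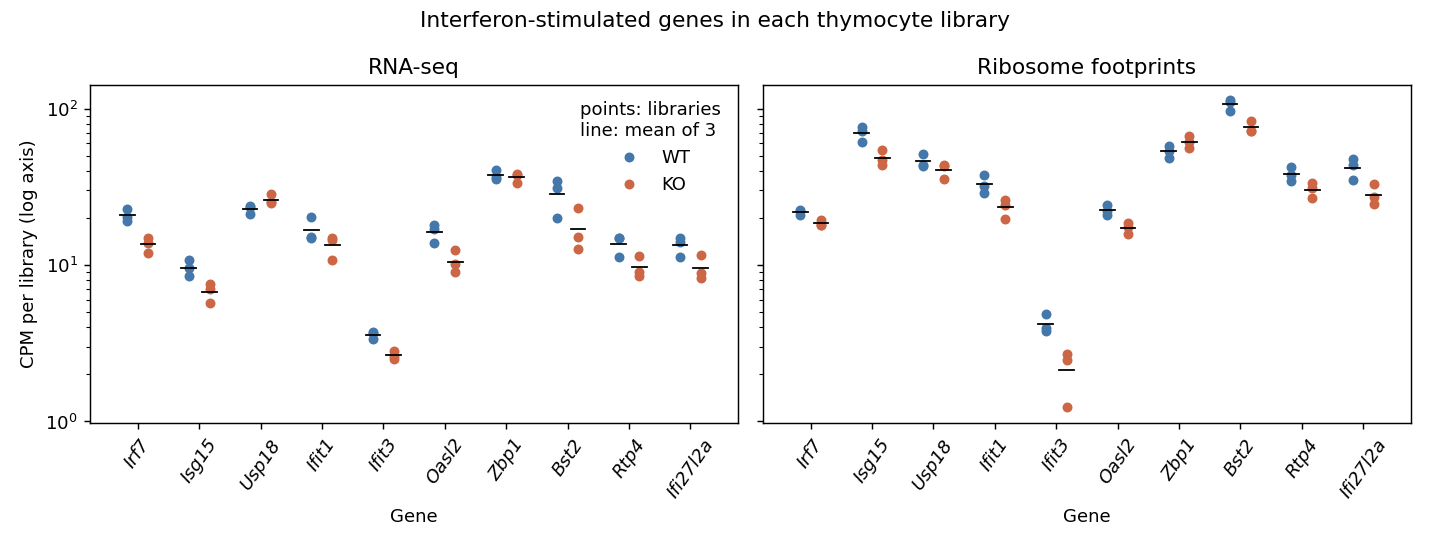
CPM of the 10 genes by library on a log axis, with RNA-seq and footprints in separate panels; points are single WT (blue) and KO (orange) libraries and lines the mean of 3. Irf7, Isg15, Ifit3 and Oasl2 have all KO points below all WT points in both assays.

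Irf7 (ENSMUSG00000025498.15) encodes a transcription factor that is itself induced by interferon and drives interferon-alpha genes, which makes it an amplifier of the response. In RNA-seq it stood at 20.3, 19.0 and 22.9 CPM in WT replicates 1 to 3 and at 13.8, 14.9 and 11.9 in KO. Every KO library was below every WT library, and the KO mean was 65.2% of WT. The log2 fold change was -0.64 (SE 0.12), with an FDR of 0.0311 by edgeR without the block and 0.255 with it.
Irf7 footprints were 22.3, 20.9 and 22.5 CPM in WT and 18.1, 19.3 and 17.9 in KO. The groups were again apart, and the KO mean was 84.2% of WT. The log2 fold change was -0.24 (SE 0.06, FDR by edgeR 0.0399, 0.416 with the block).

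Isg15 (ENSMUSG00000035692.7) encodes a ubiquitin-like protein that is attached to other proteins during the interferon response. Its footprints were 76.4, 61.1 and 71.6 CPM in WT and 43.3, 54.3 and 46.6 in KO. The lowest WT library was above the highest KO library, and the KO mean was 69.0% of WT. The footprint log2 fold change was -0.52 (SE 0.12, FDR by edgeR 0.0274, 0.0573 with the block).
Isg15 RNA was at 9.54, 10.7 and 8.54 CPM in WT and 7.02, 5.68 and 7.61 in KO. These groups did not overlap either, with a log2 fold change of -0.47 (SE 0.14) that was not called (FDR by edgeR 0.105).
Usp18 (ENSMUSG00000030107.10) encodes the protease that removes ISG15 and also restrains signalling at IFNAR2. Its RNA went the other way from that of Isg15, with 23.5, 21.2 and 23.8 CPM in WT and 25.3, 28.4 and 24.8 in KO. All KO libraries were above all WT libraries, with a log2 fold change of 0.19 (SE 0.09, FDR by edgeR 0.248). Usp18 footprints were 42.7, 51.4 and 43.7 CPM in WT and 43.5, 35.7 and 42.7 in KO, with overlap between the groups and a log2 fold change of -0.20 (SE 0.11, FDR by edgeR 0.256).

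Of the 4 members that bind or sense nucleic acids, Ifit3 and Oasl2 were called lower in footprints, and Ifit1 and Zbp1 were called in neither assay. Ifit1 (ENSMUSG00000034459.8) encodes a protein that binds foreign RNA by its cap. Its footprints were 37.8, 29.0 and 32.2 CPM in WT and 19.7, 26.2 and 24.1 in KO. The groups did not overlap, but the log2 fold change of -0.50 (SE 0.14) was not called (FDR by edgeR 0.0584, 0.145 with the block). Ifit1 RNA had KO libraries of 10.7, 14.9 and 14.5 CPM against 20.3, 15.2 and 14.9 in WT. KO replicate 2 reached the level of WT replicate 3 there, and the log2 fold change was -0.34 (SE 0.18, FDR by edgeR 0.313).
Ifit3 (ENSMUSG00000074896.3) encodes a partner of IFIT1 and had the fewest reads of the 10, 188 in WT and 72 in KO footprints. Its footprints were at 3.78, 3.97 and 4.83 CPM in WT and 2.69, 2.47 and 1.23 in KO. KO replicate 3, the shallowest library, was the lowest with 5 reads. The log2 fold change of -0.80 (SE 0.20) was called without the block (FDR by edgeR 0.0410) and not with it (0.215). Ifit3 RNA, from 74 and 50 reads, was 3.57 ± 0.199 CPM (SD, n = 3) in WT and 2.66 ± 0.174 in KO, with no overlap and an FDR by edgeR of 0.287. Ifit3b is a near-identical copy whose reads may be split from those of Ifit3, so both genes' values are uncertain.
Oasl2 (ENSMUSG00000029561.17) encodes a member of the oligoadenylate synthetase family, whose enzymes answer double-stranded RNA. Its footprints were 24.2, 20.9 and 22.2 CPM in WT and 15.9, 18.5 and 17.4 in KO, with no overlap. The log2 fold change was -0.37 (SE 0.09, FDR by edgeR 0.0317, 0.220 with the block). Oasl2 RNA was 13.8, 18.0 and 16.9 CPM in WT and 12.4, 9.0 and 10.1 in KO, again with no overlap, at a log2 fold change of -0.62 (SE 0.15, FDR by edgeR 0.0641).
Zbp1 (ENSMUSG00000027514.14) encodes a sensor of left-handed nucleic acid that can start necroptosis. It was the member with the smallest RNA difference, at 40.5, 36.4 and 35.4 CPM in WT and 33.5, 37.6 and 38.0 in KO (log2 fold change -0.04, SE 0.08, FDR by edgeR 0.817). Zbp1 footprints were 58.0, 48.3 and 53.3 CPM in WT and 55.7, 67.0 and 61.1 in KO. The groups overlapped in both assays, and the footprint value of 0.21 (SE 0.09) was not called (FDR by edgeR 0.179).

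Bst2 (ENSMUSG00000046718.8) encodes tetherin, a membrane protein that holds budding virus at the cell surface and also marks plasmacytoid dendritic cells in mice. Its footprints were 113, 96.3 and 111 CPM in WT and 71.4, 83.7 and 72.4 in KO. The groups did not overlap, and the KO mean was 70.9% of WT. The log2 fold change was -0.48 (SE 0.09), with an FDR by edgeR of 0.0154, and -0.49 (SE 0.11) with an FDR of 0.0438 in the fit with the block.
Bst2 RNA was 31.0, 20.1 and 34.4 CPM in WT and 15.1, 23.2 and 12.6 in KO. KO replicate 2 was above WT replicate 2, so the groups overlapped. The RNA log2 fold change of -0.80 (SE 0.28) was the most negative of the 10 and was not called (FDR by edgeR 0.146).
Rtp4 (ENSMUSG00000033355.6) encodes a Golgi chaperone that traffics receptors and restrains interferon responses. Its footprints were 37.7, 34.7 and 42.1 CPM in WT and 31.0, 33.3 and 26.8 in KO. Those groups did not overlap, at -0.29 (SE 0.10, FDR by edgeR 0.0892). Rtp4 RNA was 14.8, 14.9 and 11.3 CPM in WT and 9.07, 8.52 and 11.5 in KO, with WT replicate 3 below KO replicate 3 (log2 fold change -0.47, SE 0.16, FDR by edgeR 0.147).
Ifi27l2a (ENSMUSG00000079017.3) encodes a small hydrophobic protein of the ISG12 family. Its footprints were 47.3, 35.1 and 43.3 CPM in WT and 24.4, 33.1 and 27.2 in KO, with no overlap. The KO mean was 67.4% of WT and the log2 fold change -0.55 (SE 0.15, FDR by edgeR 0.0574, 0.114 with the block). In RNA the values were 14.1, 11.2 and 14.9 CPM in WT and 8.92, 11.6 and 8.23 in KO, with KO replicate 2 above WT replicate 2 (log2 fold change -0.52, SE 0.17, FDR by edgeR 0.124).

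**Figure D2:**
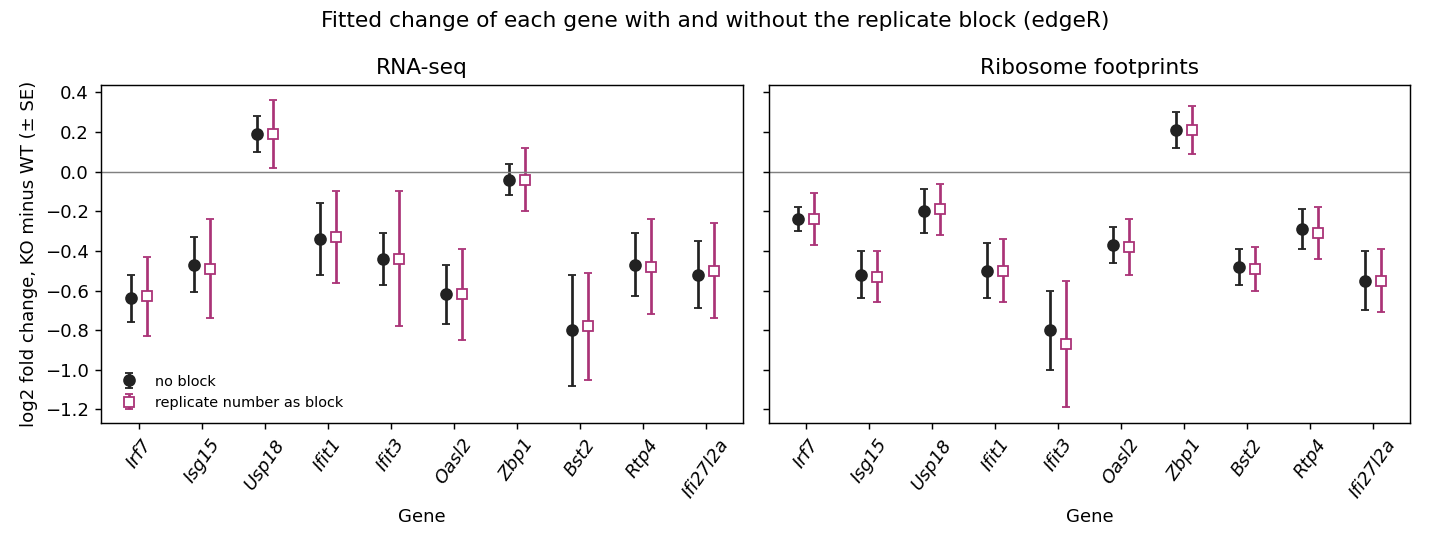
Log2 fold changes (KO against WT) of the 10 genes in RNA-seq and footprints, with bars of ± 1 SE from edgeR; filled circles are the fit without the block and open squares the fit with the replicate number as a block. All values lie between -0.87 and 0.21, with Usp18 RNA and Zbp1 footprints above 0.

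**Figure D3:**
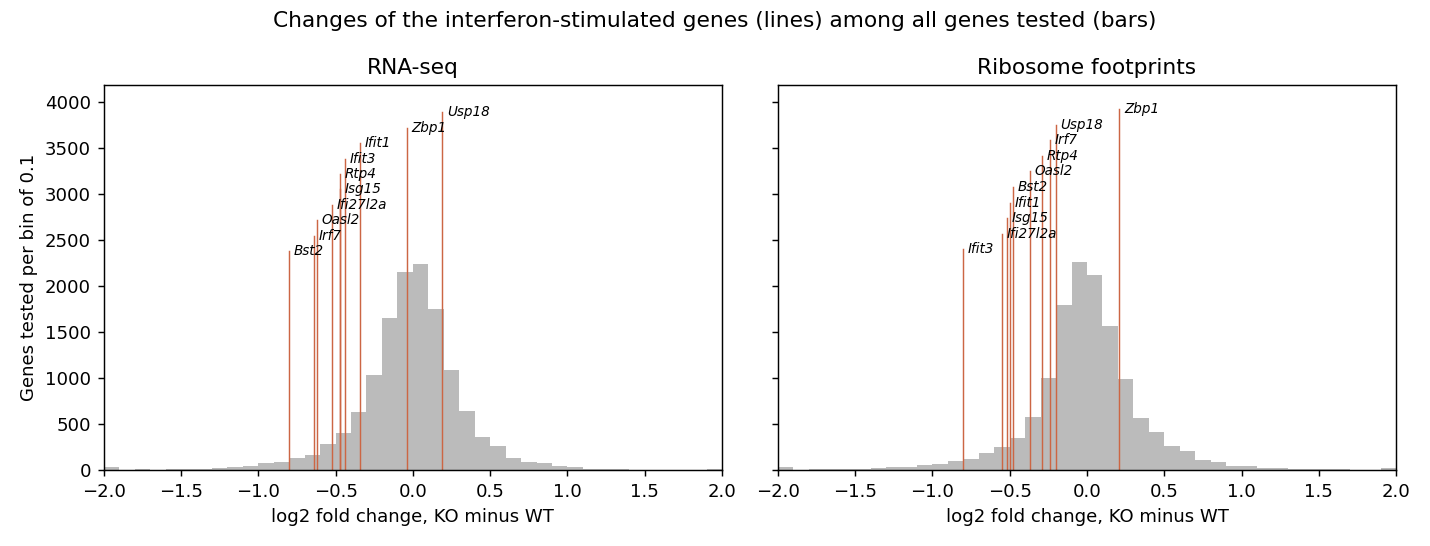
Distribution of log2 fold changes over all genes tested in each assay, with the 10 genes marked; genes beyond the plotted range are in the end bins. The medians of all genes are -0.00 in RNA-seq and -0.01 in footprints, and those of the 10 genes -0.47 and -0.43.

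Fewer libraries gave fewer calls over all genes. Leaving out 1 library at a time, 107 to 165 genes were called lower in RNA-seq against 468, and 452 to 691 in footprints against 1127. A call lost in this way therefore does not by itself show that it rested on that library. Irf7 was no longer called in RNA-seq or footprints in any of the 6 cases. Its log2 fold change stayed between -0.70 and -0.55 in RNA-seq and between -0.28 and -0.21 in footprints. Among footprint calls, Bst2 was lost without KO replicate 1 (FDR by edgeR 0.0527), and Isg15 without WT replicates 1 or 3 or KO replicates 1 or 3. Oasl2 was called without WT replicate 2 and in no other case, and Ifit3 without KO replicate 3 and in no other case. A joint fit of the 12 libraries also ended the footprint calls of Bst2 (FDR by edgeR 0.0615) and Irf7 (0.0855). DESeq2 did not call Irf7 (adjusted p 0.354), Ifit3 (0.129) or Oasl2 (0.108) in footprints, and called Ifit1 (0.0260) and Ifi27l2a (0.00938) along with Isg15 and Bst2.
In the authors' deposited table of footprints 4 of the 10 are listed as significant and lower, namely Bst2 (log2 fold change -0.45, adjusted p 0.000132), Isg15 (-0.47, 0.000931), Ifi27l2a (-0.46, 0.0091) and Ifit1 (-0.41, 0.0251). Of the 11369 genes in that table, 498 are listed as significant and lower. The authors' deposited table of RNA-seq lists none of the 10 as significant, with Irf7 at an adjusted p of 0.0672. Of its 13301 genes, 221 are listed as significant and lower and 327 as significant and higher. Fold changes of the 10 in the authors' deposited table are smaller in size than those fitted here, as for Ifit3 footprints at -0.41 against -0.80, and whether they were shrunken is not stated. Strand use in the counting is not given in the sources used here, so reads of Isg15, Usp18, Ifit1, Rtp4 and Ifi27l2a cannot be told apart from those of genes that overlap them in RefSeq, namely Gm46878, Gm44148, Ifit1bl1, Masp1 and Ifi27.

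Whether footprints changed by another amount than RNA was tested by a genotype-by-assay interaction over the 12 libraries. Of the 10 genes 0 were called by edgeR, against 0.211% of 11854 genes tested in both assays, and 0 by DESeq2 or by edgeR with the block, where 0.0169% of genes were called. At an unadjusted p under 0.05 edgeR listed 2 of the 10, where 14.0% of all genes were listed. Irf7 fell less in footprints (-0.24) than in RNA (-0.64), with an interaction of 0.40 on the log2 scale (SE 0.14, p 0.0117 and FDR 0.227 in edgeR). Usp18 was at -0.20 in footprints and 0.19 in RNA, with an interaction of -0.38 (SE 0.15, p 0.0250 and FDR 0.280 in edgeR). The other 8 interactions ranged from -0.36 (Ifit3) to 0.33 (Bst2), each with an SE between 0.14 and 0.28.
Within WT libraries the members differed widely in footprints per RNA read. The log2 ratio of footprint to RNA CPM was 2.80 for Isg15, at percentile 99 of genes tested in both assays, then 1.89 for Bst2 and 1.61 for Ifi27l2a. It was 0.08 for Irf7, at percentile 58, and 0.20 for Ifit3, against a median of -0.19 over all genes. In KO the ratio was 2.74 for Isg15, 2.13 for Bst2 and 0.44 for Irf7. This ratio sets 2 library types side by side and is a description only.

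**Figure D4:**
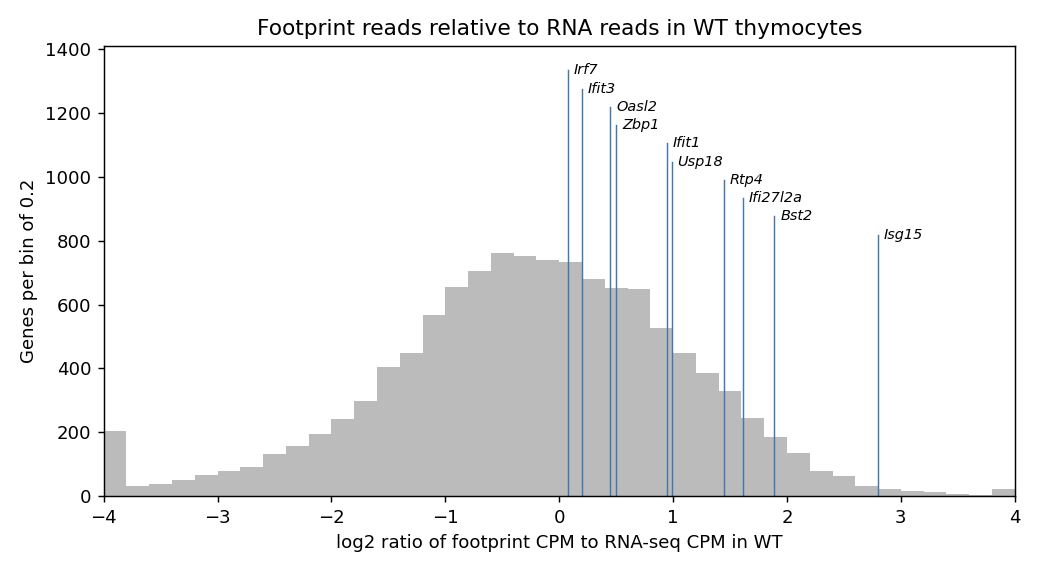
Log2 ratio of footprint to RNA CPM in WT (x, bins of 0.2) against the number of genes (y) for all genes tested in both assays, with the 10 genes marked by lines; genes beyond the plotted range are in the end bins. Of the 10, Isg15 (2.80) lies farthest right and Irf7 (0.08) farthest left.

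Upstream of these genes, interferon transcripts were hardly counted. Of 11 interferon genes listed, 9 had 0 reads in RNA-seq and 9 in footprints, and none had over 1 read in RNA-seq or over 10 in footprints. The receptor genes Ifnar1 and Ifnar2 were not lower: Ifnar1 RNA was 179 ± 4.55 CPM in WT and 184 ± 5.73 in KO (SD, n = 3, FDR by edgeR 0.712). Ifnar2 footprints rose from 71.9 ± 2.37 to 81.8 ± 2.99 (log2 fold change 0.19, FDR by edgeR 0.0313, 0.342 with the block). Ifngr1, the ligand-binding chain of the interferon-gamma receptor, rose from 260 ± 6.27 to 390 ± 9.27 CPM in RNA (log2 fold change 0.59, FDR by edgeR 0.00312, 0.0646 with the block). Its footprints rose from 722 ± 3.93 to 1138 ± 8.32 (0.66, FDR by edgeR 0.000185, 0.00240 with the block).
Footprints of Stat2, a transcription factor activated at the receptor, fell from 88.0 ± 2.62 to 76.2 ± 2.48 (-0.20, FDR by edgeR 0.0224, 0.292 with the block). Irf9, its DNA-binding partner, was at -0.21 in both assays and not called (FDR by edgeR 0.0905 in RNA-seq and 0.166 in footprints).
As a list, the signalling genes had 1 call higher and 0 lower of 23 tested in RNA-seq, and 3 higher and 2 lower of 22 in footprints, with medians of 0.03 and 0.05. With the block these became 0 and 0 in RNA-seq and 1 higher and 0 lower in footprints. Of all genes, edgeR called 3.48% higher in RNA-seq and 9.25% in footprints, and 0.388% and 1.89% with the block. Nucleic acid sensors and their adaptors had 1 higher and 0 lower of 14 in RNA-seq and 2 higher and 2 lower of 16 in footprints, with medians of -0.04 and -0.10. With the block none of them was called by edgeR in either assay.

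The 72 other interferon-stimulated genes went in both directions. In RNA-seq 6 were called higher and 4 lower of 64 tested, with a median of -0.07, and in footprints 10 higher and 9 lower of 68, with a median of -0.09. With the block 1 was called higher and 0 lower in RNA-seq, and 3 higher and 3 lower in footprints. The oligoadenylate synthetase and Mx genes among them had medians of -0.49 in RNA-seq and -0.34 in footprints over 9 tested, with 1 called higher and 2 lower in each. With the block 0 were called in RNA-seq and 1, lower, in footprints.
Oas1a, an oligoadenylate synthetase, fell from 5.74 ± 0.715 to 2.42 ± 0.436 footprint CPM (SD, n = 3, log2 fold change -1.17, FDR by edgeR 0.00708, 0.0481 with the block). Samhd1, a dNTPase that limits retroviruses, fell from 128 ± 8.97 to 87.7 ± 6.25 (-0.55, FDR by edgeR 0.00575, 0.0186 with the block). Rnf213, a ubiquitin ligase, fell from 521 ± 13.3 to 399 ± 11.3 (-0.39, FDR by edgeR 0.00217, 0.0408 with the block).
Others rose with and without the block. Ifi203, of the family of AIM2-like DNA-binding proteins, rose from 50.5 ± 7.53 to 93.0 ± 11.8 CPM in RNA (0.88, FDR by edgeR 0.0190, 0.0322 with the block) and from 41.5 ± 2.27 to 60.0 ± 3.44 in footprints (0.54). Epsti1 footprints rose from 141 ± 15.2 to 220 ± 23.6 (0.63, FDR by edgeR 0.0102, 0.0172 with the block). Those of Gbp9, an interferon-inducible GTPase, rose from 34.1 ± 2.09 to 48.2 ± 2.95 (0.49, FDR by edgeR 0.00621, 0.0453 with the block).

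**Figure D5:**
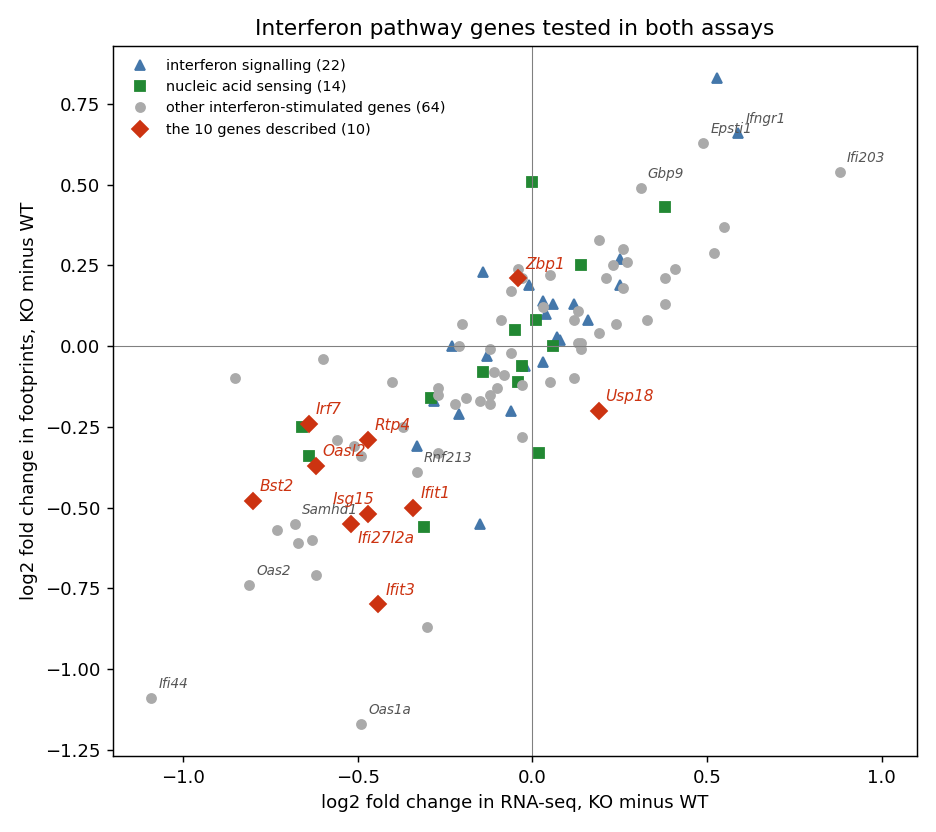
Log2 fold changes (KO against WT) in RNA-seq (x) and footprints (y) for the 10 genes and the listed pathway genes tested in both assays. The 10 genes lie mostly at the lower left, while Ifi44 lies at -1.09 and -1.09 and Ifi203 at 0.88 and 0.54.

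The likeness of the 10 to each other was described by Pearson's r of log2 CPM over the 6 libraries of an assay. Those libraries hold both genotypes and mirror each other by number, so r carries the genotype difference and no p is given. In footprints the r of a gene with the mean of the other 9 was 1.00 for Bst2, 0.99 for Irf7 and Isg15, 0.97 for Oasl2 and Ifi27l2a, 0.93 for Ifit1, 0.88 for Rtp4 and 0.77 for Ifit3. Usp18 (0.08) and Zbp1 (-0.47) stood outside that pattern. In RNA-seq r ranged from -0.62 for Usp18 to 0.94 for Ifit3. Over the 45 pairs the median r was 0.79 in footprints and 0.49 in RNA-seq.
Among 100 other listed genes the 3 most like the mean of the 10 were Ifi44 (r 0.99 in RNA-seq and 1.00 in footprints), Oas2 (0.97 and 0.98) and Samhd1 (0.95 and 0.98). Ifi44 fell from 4.28 ± 0.594 to 2.03 ± 0.387 CPM in RNA (FDR by edgeR 0.0266, 0.292 with the block), and Oas2 from 17.2 ± 0.832 to 9.84 ± 0.536 (FDR by edgeR 0.00604, 0.114 with the block).

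Markers of other cells that express interferon-stimulated genes were read beside these results. The 7 listed genes of plasmacytoid dendritic cells, a main source of interferon, summed to 1172 to 1406 CPM in WT and 1322 to 1547 in KO RNA-seq, and to 1760 to 1906 and 1764 to 1902 in footprints, with overlap in both. Most of that sum was Ccr9, which thymocytes also express. Of the list, 2 of 4 tested were lower in RNA-seq (median log2 fold change -0.22), where 50.1% of all genes were. In footprints 6 of 7 were lower (median -0.14), where 51.6% of all genes were. In each assay the calls without the block were Siglech, lower, and Tcf4, higher. Siglech, a surface receptor that defines these cells, fell from 4.55 ± 0.456 to 2.22 ± 0.337 CPM in RNA (SD, n = 3, log2 fold change -1.07, FDR by edgeR 0.0165, 0.275 with the block). Its footprints fell from 10.5 ± 1.55 to 4.85 ± 1.22 (-1.03, FDR by edgeR 0.0126, 0.0444 with the block). Tcf4, a transcription factor of the same list that thymocytes also express, rose by 0.44 in RNA and 0.42 in footprints on the log2 scale (FDR by edgeR 0.0364 and 0.0269, or 0.274 and 0.107 with the block). No gene of the list was at 0 reads.
The 11 macrophage and conventional dendritic cell markers summed to 305 to 344 CPM in WT and 284 to 326 in KO footprints, with overlap. A large part of that sum was Lyz2, at 109 ± 15.5 CPM in WT and 117 ± 17.3 in KO. In footprints 9 of the 11 were lower (median log2 fold change -0.21), where 51.6% of all genes were. Mertk, Flt3 and C1qa were called lower there, or 3 of 11 against 8.34% of all genes. With the block Mertk footprints (-0.98, FDR by edgeR 0.00161, 0.0389 with the block) were the 1 call. In RNA-seq 10 of the 11 were lower (median -0.38), where 50.1% of all genes were, and 0 were called. The 9 markers of mature thymocytes summed to 559 to 587 CPM in WT and 532 to 554 in KO RNA-seq, without overlap, and to 1093 to 1190 and 1134 to 1225 in footprints. In RNA-seq 7 of the 9 were lower (median -0.36). Ccr7, Klf2 and Cd52 were called lower there, or 3 of 9 against 3.43% of all genes, and S1pr1 (-0.79, FDR by edgeR 0.0616) was not called. In footprints 5 of the 9 were lower (median -0.10), with 1 called higher and 1 lower. With the block 0 of the 9 were called in either assay. Of the thymic epithelial and stromal markers, 5 of 7 tested were lower in RNA-seq (median -0.25) and 4 of 9 in footprints (median 0.10). In each assay 1 was called higher and 1 lower. Krt5 was called lower in RNA (-1.07, FDR by edgeR 0.0228, 0.248 with the block) and stood at -0.18 in footprints (FDR by edgeR 0.509). Epcam was called lower in footprints (-0.50, FDR by edgeR 0.0339, 0.104 with the block) and stood at -0.21 in RNA (FDR by edgeR 0.488). The sum of that list was 204 to 210 CPM in WT and 228 to 236 in KO RNA-seq, most of it Pecam1 (171 and 203 CPM), an endothelial gene, and overlapped in footprints at 233 to 255 and 236 to 267. The B cell sum was 237 to 271 CPM in WT and 287 to 330 in KO RNA-seq, without overlap, and 292 to 366 and 345 to 441 in footprints. Footprints of S100a8, a neutrophil gene, rose from 68.9 ± 16.8 CPM in WT to 135 ± 33.1 in KO (1.02, FDR by edgeR 0.0263, 0.0330 with the block). Of the erythroid genes, Hbb-bs fell in RNA (-0.62, FDR by edgeR 0.0155, 0.137 with the block) and stood at 0.03 in footprints. The part of any of these cells in the levels of the 10 genes was not tested.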

How the data were processed

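RNA-seq and ribosome footprints were measured in 12 thymocyte libraries, 3 per group, grouped and numbered by their titles. The deposited values are whole-number counts per Ensembl gene, which the authors named adjusted, per the file headers; what was adjusted is not stated. The submitters' processing notes name FastQC, Bowtie2 2.5.1, STAR 2.7.10a, HTSeq 2.0.3 and DESeq2 1.40.2; build, annotation and strand use were not given in the sources used here. Rows for reads outside genes or with ambiguous or multiple alignments, 71.5% to 73.0% of counted reads in RNA-seq and 26.9% to 27.7% in footprints, were left out of library totals. The authors also deposited comparison tables, and their 12 columns of per-library values were not used.

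Of the gene IDs, 54587 were matched to symbols with their version and 567 (Isg15 among them) without it, and 181 had no match. The 6 libraries of an assay were fitted with edgeR 4.0.16 (R 4.3.3; TMM, filterByExpr with a minimum count of 10, quasi-likelihood test, Benjamini-Hochberg), and calls are at an FDR under 0.05. CPM values were computed from the counts. SEs are fold changes (log2) over the root of the F statistic. The change of footprints beyond RNA was the interaction of genotype and assay over the 12 libraries. Correlations and ratios used log2 of CPM plus 0.5. Counts of libraries within a group differed beyond sampling noise, and each library was taken as 1 replicate. Same-numbered WT and KO libraries mirrored each other, so this check does not show that the libraries are independent. The p-values refer to the spread between these adjusted libraries alone, which may not be that between mice. The fits were tested on simulated libraries drawn independently of each other. Those lack the mirroring, so that test does not check the p-values given here.

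The 10 genes and all lists were chosen with earlier results of these data known. Other listed pathway genes are named where called with and without the block in the same assay, with Stat2, Irf9, Ifnar1, Ifnar2 and 1 gene not reported here to be named whatever their values and the 3 genes most like the 10; named marker genes were picked with their values in view. Alternatives tried were DESeq2 1.42.0, RLE size factors, no low-count filter, the replicate block, a joint fit, an FDR under 0.1 and leaving out each library. Promoters, microRNAs and overlapping genes are from RefSeq (GRCm38.p6).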

Additional observations from a re-analysis of the deposited data

How the results depend on the processing

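The count of the 10 genes called lower in KO RNA-seq, 1 as reported, was 0 with DESeq2, 2 without the low-count filter, 0 with the replicate block, 3 in the joint fit of the 12 libraries, 2 at an FDR under 0.1 and 0 in each case of 1 library left out. The count over all genes moved too, from 468 to 217 with DESeq2, 504 without the filter and 57 with the block. It was 782 in the joint fit and 878 at an FDR under 0.1. In footprints the 5 became 1 with the replicate block, 8 at an FDR under 0.1 and 0 to 4 when 1 library was left out, with 0 without KO replicate 1, while RLE size factors and the joint fit gave 5, DESeq2 4 and no filter 7. Over all genes the block took the footprint count from 1127 to 153, and an FDR under 0.1 is looser for all genes alike. The members called were not the same genes: the joint fit lost Irf7 and Bst2 and gained Ifit1 and Ifi27l2a, DESeq2 lost Irf7, Ifit3 and Oasl2 and gained the same pair, and no filter lost Irf7. The interaction count was 0 under each alternative run, the block included. Same-numbered WT and KO libraries deviated in opposite directions (r between -0.99 and -0.96), so the replicate numbers link libraries in these adjusted counts. The fit without the block takes no account of that link, and whether the numbers pair mice is not known.

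Signs of single genes changed in cases of 1 library left out and in no other alternative run. Zbp1 RNA ranged from -0.09 to 0.02 (0.01 without WT replicate 1, 0.02 without KO replicate 1). The interaction of Isg15 ranged from -0.18 to 0.04, with reversed values of 0.02, 0.03 and 0.04, and that of Ifi27l2a from -0.20 to 0.09, with reversed values of 0.07 and 0.09. The median interaction of the 10 ranged from -0.05 to 0.12, with reversed values of -0.02 and -0.05. The cause of these changes was not tested. The median fold change of the 10 stayed between -0.51 and -0.33 in footprints and between -0.49 and -0.44 in RNA-seq when 1 library was left out, with 9 lower in footprints and 8 to 9 in RNA-seq. Over all genes, leaving out 1 library gave 107 to 165 genes called lower in RNA-seq against 468, 452 to 691 in footprints against 1127, and 6 to 24 interactions against 25. Depth limits Ifit3 most, with 5 to 71 footprint reads per library. The comparison of levels between genes per length was not run.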
